A study of Aspergillus luchuensis with 9 samples.

Results

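The genes described here encode proteins of the cytosolic ribosome in the shochu mould Aspergillus luchuensis mut. kawachii. They were taken by symbol from the RefSeq annotation of the strain: a symbol that starts with RPL, RPS or RPP followed by a digit, in upper or lower case, with mitochondrial ribosomal proteins (MRP) left out. The rule found 56 of the 12941 genes in the deposited table: 31 of the large subunit (RPL), 23 of the small subunit (RPS) and 2 with a stalk-type symbol (RPP0 and rpp1). The set is not a whole ribosome, since the annotation used here gives no gene the symbol RPL4, RPL6, RPL10 or RPS20, for example. All 56 genes passed the filter on low values (at least 1 FPKM in at least 3 libraries) that left 10009 genes for testing, so none was lost or selected by it.

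Expression was measured by RNA-seq in a control strain, a hepA deletion strain (ΔhepA) and a laeA deletion strain (ΔlaeA), all of the mut. kawachii background, with 3 libraries each and no treatment, time or culture condition in the labels. HepA is the Aspergillus counterpart of heterochromatin protein 1, which binds methylated histone H3, and LaeA is a methyltransferase-like nuclear regulator of secondary metabolism. The labels do not say whether replicates were separate cultures or whether each strain was 1 transformant, so the p-values reflect library-to-library spread, which may be technical. No gene of the annotation carries the symbol hepA or laeA, so the deletions were not checked here. Values are FPKM (fragments normalised to transcript length and to sequencing depth), so a level is relative to all other RNA of its library.

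A ribosome joins a small subunit, which holds the mRNA and reads its codons, to a large subunit, which forms the peptide bond and threads the new chain through an exit tunnel. The proteins are needed in near-equal numbers, and in yeasts their genes are transcribed together in step with growth, nutrients and the TOR kinase pathway, and are repressed together under stress. They are among the most abundant mRNAs of a growing fungal cell.

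In the control strain the 56 genes had a median level of 1144 FPKM, against 23.5 FPKM for all tested genes. Of the 56, 49 lay above the 90th percentile of tested genes (229 FPKM), and 34 stood at 1000 FPKM or more. The levels still differed 296-fold between the highest and the lowest gene. RPL39, a very small protein of the exit tunnel wall, was highest at 24993, 24629 and 26198 FPKM in control replicates 1 to 3. Its mean of 25273 ± 821 FPKM (SD, n = 3) was 22.6% of the summed level of the 56 genes. RPL32, a large subunit protein, came next at 7652 ± 801 FPKM, then RPL36, also of the large subunit, at 4801 ± 559 FPKM, and RPL43, a zinc-binding protein of the large subunit, at 4408 ± 238 FPKM. RPL36 and RPL43 did not differ beyond their spread.

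At the low end stood RPS28A, a small subunit protein at the mRNA exit channel, at 85.3 ± 16.2 FPKM, and RPS12, a protein of the small subunit head, at 86.8 ± 16.0 FPKM. RPL22, which yeast cells can do without, stood at 108 ± 24.5 FPKM and RPS14, at the mRNA exit channel near RPS28A, at 131 ± 18 FPKM. Each of these 4 overlapped the next in the order, while the control libraries of RPS14 (113 to 149 FPKM) lay above all those of RPS12 (76.9 to 105 FPKM) and RPS28A (72.5 to 103 FPKM). In all, 7 of the 56 genes had a control mean under 200 FPKM. The FPKM of very short mRNAs depends on how the effective length was estimated, and genes with a near-identical copy can share reads, so the order of levels between genes is less certain than the comparison of 1 gene between strains.

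**Figure D1:**
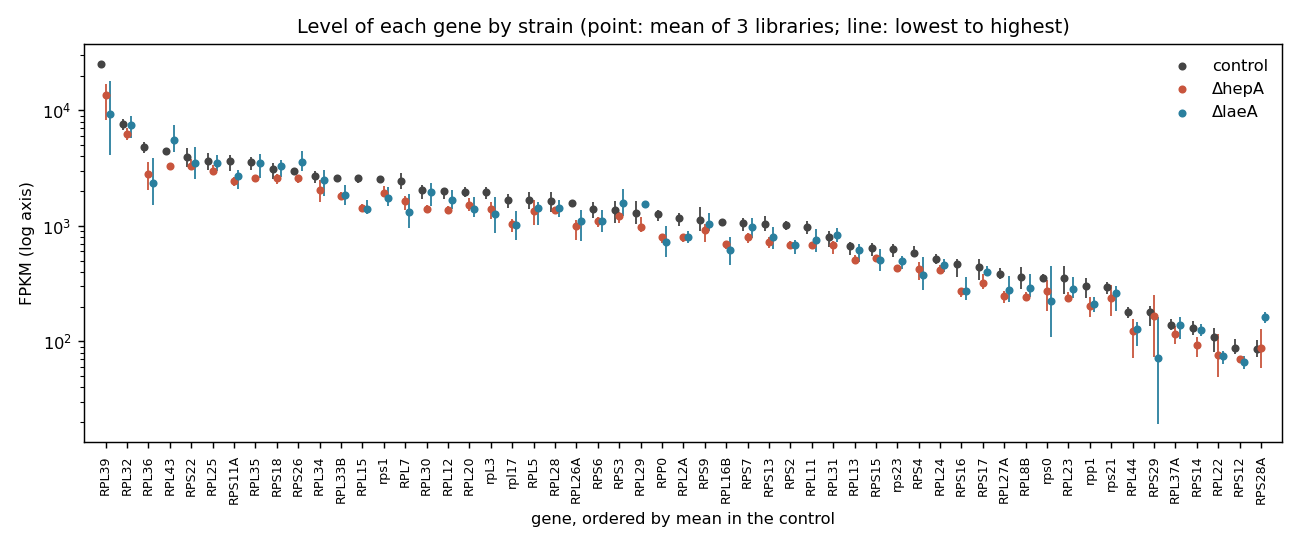
FPKM on a log axis for 55 of the 56 genes, ordered by their control mean, in the control (grey), ΔhepA (red) and ΔlaeA (blue); points are means of 3 libraries and lines run from the lowest to the highest library. RPL39 stands apart at the top with a control mean of 25273 FPKM, and the long blue lines at RPL39, rps0 and RPS29 show genes that differed widely among the ΔlaeA libraries.

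The libraries were not separated by strain alone, which touches every comparison that follows. The first principal component of all tested genes held 39.1% of the variance. On it, 6 libraries scored between -46.4 and -9.8, whereas ΔhepA replicate 2 scored 28.8 and ΔlaeA replicates 2 and 3 scored 53.6 and 72.8; these are called below the 3 libraries that lay apart. Their transcripts of the mitochondrial genome made up 2.85%, 3.04% and 7.0% of summed FPKM, compared with 1.09% to 1.66% elsewhere. ΔlaeA replicates 2 and 3 were also the shallowest, at 0.66 and 0.52 of the depth of control replicate 3 as read from the steps between low FPKM values, against 0.841 to 1.03 in the others. At the levels of the 56 genes, 19.1 FPKM or more in every library, such steps are small. Markers of conidia and conidiophores, the asexual spores and their stalks, matched 10 genes with 0 of them listed at 0 throughout; their summed level was 524 to 570 FPKM in the control, 545 to 758 in ΔhepA and 690 to 847 in ΔlaeA. The sum is mostly fluG, a conidiation gene with means of 352, 514 and 526 FPKM. Of the 10 genes, 6 were lower than the control in ΔhepA (median log2 difference -0.13) and 7 in ΔlaeA (median -0.60). Without the 3 libraries that lay apart these became 4 (median 0.23) and 3 (median 0.26). The part of spores, depth or the libraries that lay apart in the values below was not tested except where values without those libraries are given.

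The share of all measured transcripts taken by the 56 genes was lower in both deletion strains than in the control. It was 6.72%, 7.61% and 7.85% of the FPKM sum in control replicates 1 to 3, 5.46%, 4.95% and 5.52% in ΔhepA, and 5.99%, 3.69% and 5.39% in ΔlaeA. None of the 6 deletion libraries reached the lowest control library on this scale. With median-ratio scaling the summed FPKM of ΔlaeA replicates 1 and 3 (89339 and 102518) lay above the lowest control (85346), and the ΔhepA libraries (77700 to 82561) still lay below it. The mean shares were 7.39% ± 0.592, 5.31% ± 0.311 and 5.02% ± 1.19 (SD, n = 3), which put ΔhepA at 0.718 and ΔlaeA at 0.679 of the control. No test was made of this sum, because its members were chosen with results of these data known. In bulk RNA, fewer cells with active translation and less of these RNAs per cell cannot be told apart.

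Part of that gap was RPL39, which alone took 1.67% of the control sum, 0.926% in ΔhepA and 0.556% in ΔlaeA. Without it the shares were 5.05%, 5.96% and 6.16% in the control, 4.31%, 4.35% and 4.49% in ΔhepA, and 4.92%, 3.36% and 5.12% in ΔlaeA. The ΔhepA libraries then still lay below all controls, whereas ΔlaeA replicate 3 lay inside the control range. By subunit, the large subunit took 5.42% ± 0.363 of the control sum, 3.74% ± 0.359 in ΔhepA and 3.47% ± 0.889 in ΔlaeA. The small subunit took 1.86% ± 0.221, 1.5% ± 0.0826 and 1.5% ± 0.312. Without the 3 libraries that lay apart, the share in ΔhepA was 0.743 of the control and the share in ΔlaeA, then 1 library, 0.81.

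**Figure D2:**
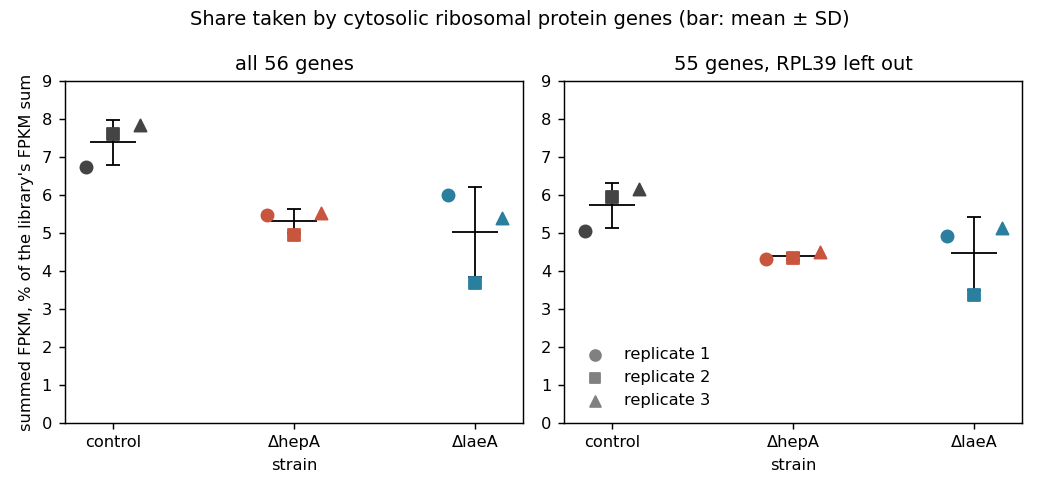
Summed FPKM of the cytosolic ribosomal protein genes as a percentage of each library's FPKM sum, for all 56 genes (left) and without RPL39 (right); each symbol is a library, its shape gives the replicate, and bars are mean ± SD. All 6 deletion libraries lie below the lowest control (6.72%) on the left, and ΔlaeA replicate 3 (5.12%) lies just above the lowest control (5.05%) on the right.

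In ΔhepA against the control, each of the 56 genes had a negative difference in log2(FPKM + 1), from -0.96 to -0.01 with a median of -0.47. Among all tested genes 62.7% were lower and the median was -0.15, so the medians differed by -0.32 on the log2 scale. None of the 56 genes passed the test (limma, Benjamini-Hochberg over 10009 genes, threshold 0.05; adjusted p 0.138 to 0.994), against 0.32% of all tested genes. At an unadjusted p under 0.05, 17 of the 56 (30.4%) were lower, against 7.85% of all tested genes. In 33 of the 56 (58.9%) all 3 ΔhepA libraries lay below all 3 controls, against 14.2% of all tested genes, and in 0 of the 56 did they all lie above, against 5.48%. The standard errors of the 56 differences ran from 0.208 to 0.675 with a median of 0.245, against a median of 0.377 over all tested genes. The shares over all tested genes were not matched to the 56 genes for level or spread.

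The ΔhepA direction was also seen in other subsets and scalings. Without the 3 libraries that lay apart, 54 of the 56 genes were lower and their median difference was -0.39, while all tested genes had a median of -0.05. Median-ratio scaling moved the median of all tested genes to 0.01, and 54 of the 56 then stayed lower, with a median of -0.29. RPS28A and RPS3 were the genes that took a positive sign there (0.16 and 0.01).

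In ΔlaeA against the control the 56 genes were less uniform. Of the 56, 49 were lower and 7 higher, from -1.84 to 0.93 with a median of -0.36, against a median of -0.21 over all tested genes, of which 62.7% were lower. None passed the test (limma adjusted p 0.0669 to 0.972), against 1.09% of all tested genes. At an unadjusted p under 0.05, 16 were lower (28.6%, against 14.1% of all tested genes) and 1 higher (1.79%, against 7.53%). All 3 ΔlaeA libraries lay below all controls in 15 of the 56 (26.8%), against 14.5% of all tested genes, and above all controls in 1, RPS28A, against 8.48%. Median-ratio scaling left 35 of the 56 lower, at a median of -0.15. Without the 3 libraries that lay apart, which leaves ΔlaeA replicate 1 alone, 39 were lower with a median of -0.13, against 0.02 over all tested genes. The distance between the median of the 56 genes and that of all tested genes, -0.15 with all libraries, was -0.02 without ΔlaeA replicate 2, where 40 were lower at a median of -0.22. It was -0.06 and -0.05 without control replicates 2 and 3 and -0.33 without control replicate 1. Leaving out ΔlaeA replicate 1 put 13 of the 56 genes past the threshold, all lower, in a fit that called 1601 genes in all (16% of those tested).

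**Figure D3:**
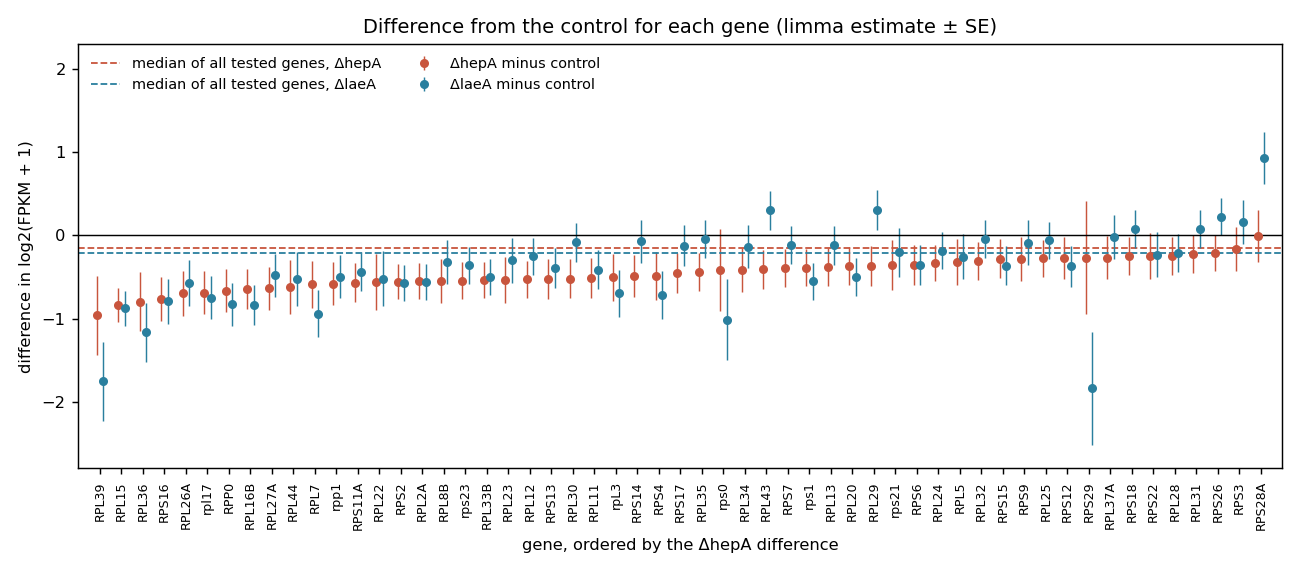
Difference from the control in log2(FPKM + 1) for 55 of the 56 genes (limma estimate ± SE) in ΔhepA (red) and ΔlaeA (blue), ordered by the ΔhepA value; dashed lines are the medians of all 10009 tested genes (-0.15 and -0.21). The red points run from -0.96 (RPL39) to -0.01 (RPS28A), all at or below 0, while the blue points run from -1.84 (RPS29) to 0.93 (RPS28A).

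RPL15, a large subunit protein that contacts much of the large rRNA, was the gene with the smallest spread relative to its difference. It stood at 2328, 2680 and 2718 FPKM in control replicates 1 to 3. In ΔhepA it stood at 1540, 1402 and 1375 FPKM and in ΔlaeA at 1663, 1262 and 1306 FPKM. The 6 deletion libraries lay within a narrow band well under the controls. The log2 difference was -0.84 ± 0.208 (SE) in ΔhepA (limma adjusted p = 0.138) and -0.88 ± 0.208 in ΔlaeA (adjusted p = 0.0669). The 2 comparisons share their control libraries. RPL15 kept a difference of -0.82 in ΔhepA and -0.63 in ΔlaeA without the 3 libraries that lay apart. In ΔlaeA it passed the threshold with TPM scaling (limma adjusted p = 0.04), with quantile normalization (0.0416) and without ΔlaeA replicate 1 (0.0179). The last of these fits kept only the ΔlaeA libraries that lay apart and called 1601 of all tested genes. RPL15 did not pass in the other ΔlaeA fits, with 0.11 after median-ratio scaling and 0.269 without ΔlaeA replicate 2. It passed in none of the ΔhepA fits (0.117 to 0.463).

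Of the proteins that line the exit tunnel or surround its mouth, RPL39 had the largest difference. Its 24629 to 26198 FPKM in the controls compare with 16987, 8259 and 15723 FPKM in ΔhepA replicates 1 to 3 and 17943, 5666 and 4132 FPKM in ΔlaeA. The 3 libraries that lay apart held the lowest levels, and the other deletion libraries were also below all controls. The log2 difference was -0.96 ± 0.474 in ΔhepA (limma adjusted p = 0.517) and -1.75 ± 0.474 in ΔlaeA (0.089), and -0.63 and -0.49 without those 3 libraries. RPL39 made up 17.6% of the summed family level in ΔhepA and 11.2% in ΔlaeA, against 22.6% in the control.

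Other genes of the tunnel region had smaller differences, though no test was made between genes. rpl17, whose protein reaches into the tunnel's narrow part, stood at 1690 ± 246 FPKM in the control, 1046 ± 141 in ΔhepA and 1025 ± 297 in ΔlaeA (SD, n = 3; log2 differences -0.69 and -0.75, limma adjusted p = 0.371 and 0.146). RPL26A, at the tunnel mouth, stood at 1582 ± 53.9, 991 ± 203 and 1098 ± 328 FPKM (-0.70 and -0.57). In ΔhepA the standard errors of rpl17 (0.26) and RPL26A (0.274) span much of the distance to RPL39, and without the 3 libraries that lay apart rpl17 stood at -0.58 and RPL26A at -0.51, close to the -0.63 of RPL39. RPL25, the docking site of the signal recognition particle in yeast, stood at 3652 ± 599, 3008 ± 315 and 3510 ± 555 FPKM, and RPL31, at the tunnel exit where chaperones bind, at 796 ± 126, 681 ± 94.4 and 836 ± 113 FPKM. RPL25 and RPL31 overlapped between strains, and RPL31 had a ΔlaeA difference of 0.07.

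RPL36 had its low values in the same libraries as RPL39. It stood at 4244, 4796 and 5361 FPKM in the controls, 3561, 2041 and 2869 FPKM in ΔhepA and 3900, 1520 and 1632 FPKM in ΔlaeA. No deletion library reached the lowest control, and the 3 libraries that lay apart were again the lowest. Its log2 difference was -0.80 ± 0.357 in ΔhepA and -1.16 ± 0.357 in ΔlaeA (limma adjusted p = 0.47 and 0.118), and -0.58 and -0.29 without those libraries.

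RPL16B and RPL7, proteins of the large subunit surface and of its contact with the central part of the rRNA, also had all ΔhepA and all ΔlaeA libraries below the controls. RPL16B stood at 1079 ± 63.3 FPKM in the control, 690 ± 53.9 in ΔhepA and 619 ± 173 in ΔlaeA (log2 differences -0.64 and -0.84, limma adjusted p = 0.371 and 0.108). RPL7 stood at 2461 ± 408, 1635 ± 229 and 1326 ± 499 FPKM (-0.59 and -0.94, adjusted p = 0.502 and 0.113). rpL3, which lies close to the peptidyl transferase centre, stood at 1967 ± 244, 1393 ± 231 and 1261 ± 456 FPKM, and RPL2A, also near that centre, at 1169 ± 161, 795 ± 65.9 and 794 ± 103 FPKM. RPL5 and RPL11, which join the ribosome together as a particle with 5S rRNA, stood in the control at 1667 ± 281 and 983 ± 130 FPKM. In ΔhepA they stood at 1353 ± 325 and 686 ± 28.1 FPKM and in ΔlaeA at 1415 ± 339 and 748 ± 180 FPKM.

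RPP0, the base of the stalk that recruits elongation factors, stood at 1109, 1313 and 1359 FPKM in the controls, 835, 716 and 833 FPKM in ΔhepA and 1000, 536 and 657 FPKM in ΔlaeA. All deletion libraries lay below all controls, with log2 differences of -0.66 ± 0.258 and -0.83 ± 0.258 (limma adjusted p = 0.389 and 0.121). RPL12, which forms the stalk's base together with RPP0, stood at 1985 ± 230, 1372 ± 98.2 and 1681 ± 331 FPKM. The gene with the symbol rpp1 stood at 302 ± 58.5, 202 ± 39.7 and 212 ± 30.1 FPKM (-0.58 and -0.50, adjusted p = 0.467 and 0.276). In Saccharomyces cerevisiae the symbol RPP1 belongs to a subunit of RNase P, and the stalk proteins are RPP1A and RPP1B, so whether this gene is ribosomal was not settled here. Without it the family had 55 genes, all lower in ΔhepA with a median of -0.45, and 48 lower in ΔlaeA with a median of -0.36.

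In the small subunit, RPS16, whose protein sits in the head near the tRNA sites, had the lowest ΔhepA difference. RPS16 stood at 361, 518 and 518 FPKM in the controls, 282, 241 and 289 FPKM in ΔhepA and 361, 227 and 226 FPKM in ΔlaeA (log2 differences -0.76 ± 0.267 and -0.79 ± 0.267, limma adjusted p = 0.335 and 0.138). Control replicate 1 and ΔlaeA replicate 1 were level for RPS16. RPS2, at the mRNA entry, was lower in each deletion library than in each control, at 1012 ± 82.0, 689 ± 45.1 and 686 ± 103 FPKM. RPS6, the classic target of phosphorylation downstream of TOR, stood at 1411 ± 218, 1100 ± 113 and 1112 ± 242 FPKM, with overlapping groups.

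RPS3, which guards the mRNA entry together with RPS2, had one of the smallest ΔhepA differences (-0.16), at 1380 ± 293, 1219 ± 138 and 1562 ± 468 FPKM. RPS26, at the mRNA exit channel, stood at 3002 ± 235, 2594 ± 209 and 3552 ± 781 FPKM. RPS14 stood at 131 ± 18, 93.8 ± 18.4 and 124 ± 15.7 FPKM, and RPS12 at 86.8 ± 16.0, 71.0 ± 1.70 and 66.6 ± 8.91 FPKM. The small subunit as a whole had a median difference of -0.39 in ΔhepA and -0.36 in ΔlaeA, next to -0.52 and -0.32 for the large subunit; the difference between the subunits was not tested.

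**Figure D4:**
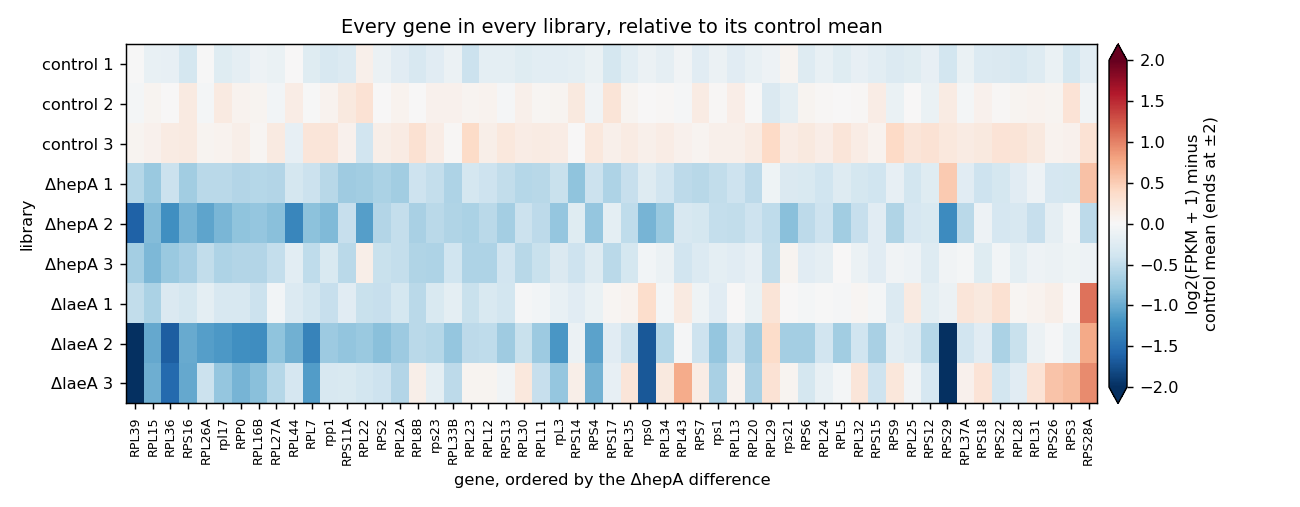
55 of the 56 genes (columns, ordered by the ΔhepA difference) in each of the 9 libraries (rows), coloured by log2(FPKM + 1) minus the gene's control mean; blue is lower and red is higher, and colours end at ±2. The ΔhepA rows are blue almost throughout (54, 56 and 53 of all 56 genes below the control mean), and the ΔlaeA rows mix deep blue (RPL39, rps0, RPS29) with red (RPS28A, RPL43).

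The libraries of 1 strain also differed in how evenly the family stood. Relative to the control means, the median of the 56 genes was -0.20, 0.05 and 0.15 in control replicates 1 to 3, -0.43, -0.54 and -0.30 in ΔhepA and -0.13, -0.67 and -0.31 in ΔlaeA (log2 scale). Control replicate 1 was the lowest control for 50 of the 56 genes, and ΔlaeA replicate 2 the lowest ΔlaeA library for 48. The SD of these deviations over the 56 genes was 0.104 to 0.122 in the controls, 0.234 to 0.317 in ΔhepA, and 0.283, 0.532 and 0.724 in ΔlaeA replicates 1 to 3. Control values are drawn towards 0 because each control library is part of the mean it is set against. Over the 9 libraries, which share strains and depth, the median Pearson correlation of log2(FPKM + 1) between 2 of the 56 genes was 0.657, and 94.2% of the 1540 pairs were above 0. RPS13, a small subunit protein, tracked the median of the other genes most closely (r = 0.964, 9 libraries), and RPS28A least (r = 0.000805).

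Apart from RPL39 and RPL36, rps0 and RPS29 had the lowest ΔlaeA differences of the family. rps0, a small subunit protein needed for maturation of that subunit in yeast, stood at 327, 356 and 380 FPKM in the controls and 295, 184 and 341 FPKM in ΔhepA. In ΔlaeA it stood at 452, 109 and 108 FPKM, so replicate 1 was above all controls and replicates 2 and 3 were far below them. RPS29, a zinc-binding protein of the small subunit head, stood at 136, 196 and 202 FPKM in the controls, 253, 72.8 and 168 FPKM in ΔhepA and 162, 35.6 and 19.1 FPKM in ΔlaeA. Its low values were in the 3 libraries that lay apart, and the other ΔhepA and ΔlaeA libraries lay inside or above the control range. The ΔlaeA log2 difference was -1.01 ± 0.489 for rps0 (limma adjusted p = 0.25) and -1.84 ± 0.675 for RPS29 (0.162). Without the 3 libraries that lay apart it was 0.35 and -0.11, so neither difference was present in ΔlaeA replicate 1.

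On the high side, RPS28A reached 180, 143 and 164 FPKM in ΔlaeA replicates 1 to 3, from 72.5, 79.9 and 103 FPKM in the control strain. All ΔlaeA libraries were above all controls, with a mean 1.9 times that of the control. In ΔhepA it stood at 128, 58.3 and 78.8 FPKM, overlapping the controls. The ΔlaeA log2 difference was 0.93 ± 0.31 (limma adjusted p = 0.137), and 1.08 in ΔlaeA replicate 1 alone, so it was as large without the libraries that lay apart. The neighbour HIS1, a histidine synthesis gene that starts 572 bp away on the other strand, had a difference of -0.09. RPL43 stood at 4214, 4336 and 4674 FPKM in the controls, 3071, 3522 and 3373 FPKM in ΔhepA and 4971, 4351 and 7403 FPKM in ΔlaeA. RPL29, which joins the large subunit late and which yeast can lose, stood at 1168, 1034 and 1653 FPKM in the controls, 1185, 885 and 890 FPKM in ΔhepA and 1509, 1629 and 1534 FPKM in ΔlaeA. The ΔlaeA values of both genes overlapped the controls (log2 differences 0.30 and 0.31, adjusted p = 0.45 and 0.458).

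**Figure D5:**
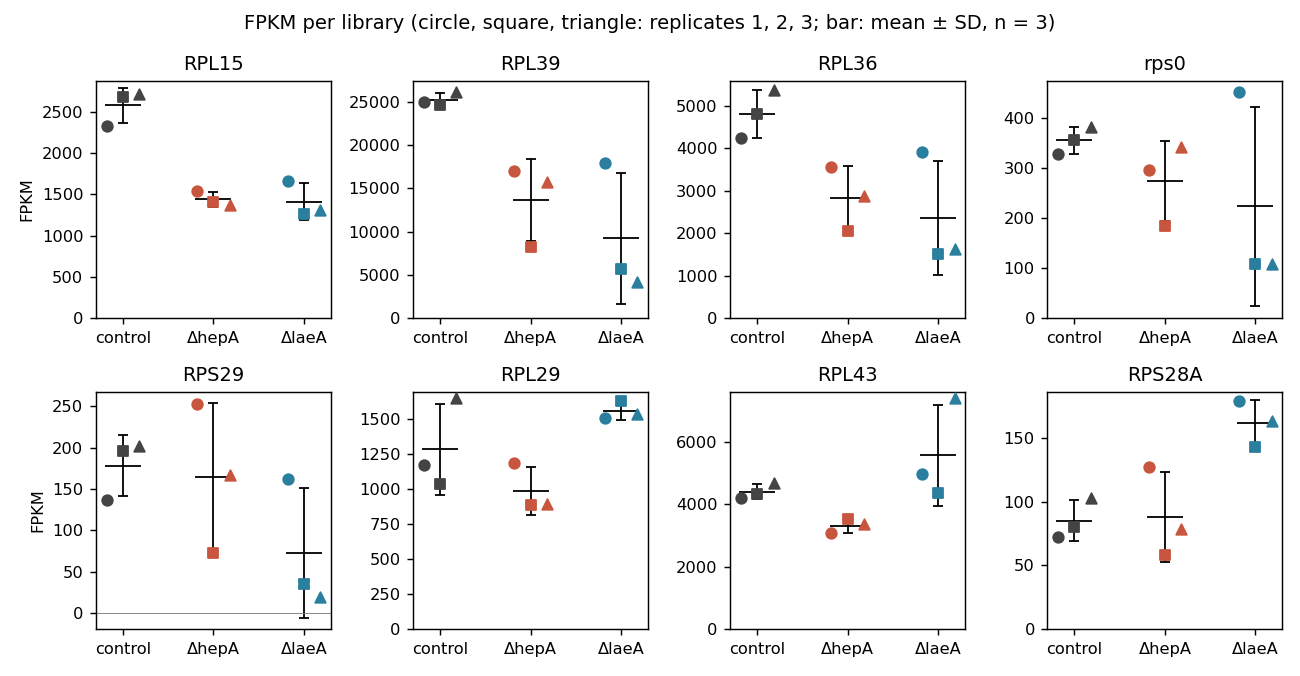
FPKM of 8 genes in each library, by strain (symbol shape gives the replicate; bars are mean ± SD, n = 3; each panel has its own axis). RPL15 is lower in all 6 deletion libraries, RPL39, RPL36, rps0 and RPS29 are lowest in ΔhepA replicate 2 (72.8 FPKM for RPS29, for example) and ΔlaeA replicates 2 and 3 among the libraries of their strain, and RPS28A is higher in all 3 ΔlaeA libraries (143 to 180 FPKM).

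Set directly against each other, ΔlaeA and ΔhepA did not differ in any of the 56 genes by limma (adjusted p 0.412 to 0.999), against 0.05% of all tested genes called. At an unadjusted p under 0.05 there were 4 of the 56 (7.14%), against 9.49% of all tested genes. The 4 were RPL43 (log2 difference 0.71 ± 0.234, ΔlaeA minus ΔhepA), RPS28A (0.94 ± 0.31), RPL29 (0.67 ± 0.241) and RPS29 (-1.57 ± 0.675). All 3 ΔlaeA libraries lay above all 3 ΔhepA libraries in 5 genes, RPL29, RPL43, RPS14, RPS26 and RPS28A (8.93%, against 7.58% of all tested genes), and below them in 0 of 56 (against 4.79%). These shares were near those of all tested genes. The median difference of the 56 genes was 0.11, against -0.05 over all tested genes, and its sign turned with TPM scaling (-0.06).

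Genes that work with the ribosome are given as counts, none of them called by limma in either deletion strain. Of 21 tested translation factors, 19 were lower in ΔhepA (median log2 difference -0.31) and 19 in ΔlaeA (median -0.74). Without the 3 libraries that lay apart these became 13 (median -0.18) and 15 (median -0.16). TEF1, which carries aminoacyl-tRNA to the ribosome, stood at 2406 ± 212 FPKM in the control, 1944 ± 108 in ΔhepA and 1556 ± 429 in ΔlaeA. SUI1, which selects the start codon, stood at 1866 to 2231 FPKM in the control, and at 2125, 1266 and 721 FPKM in ΔlaeA replicates 1 to 3, so replicate 1 lay inside the control range. TIF11, another initiation factor, had differences of -0.42 and -1.19 (limma adjusted p = 0.662 and 0.0782). Of 11 tested ribosome-associated factors and nascent chain chaperones, 8 were lower in ΔhepA (median -0.21) and 6 in ΔlaeA (median -0.34, and -0.0036 without control replicate 1). EGD1, a subunit of the nascent polypeptide-associated complex that binds at the tunnel exit, stood at 9939 ± 759 FPKM in the control, 7619 ± 1868 in ΔhepA and 10276 ± 3367 in ΔlaeA.

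For genes that build the ribosome the direction in ΔhepA, and for some lists in ΔlaeA, depended on single libraries. Of these genes 0 were called by limma in either deletion strain. Of 74 ribosome biogenesis genes, 63 were higher in ΔhepA (median 0.27), but 38 without control replicate 1 (median 0.0018) and 29 without ΔhepA replicate 1 (median -0.09). Their summed level overlapped between the strains, at 6451 to 12679 FPKM in the control and 8733 to 17498 FPKM in ΔhepA. In ΔlaeA 57 of the 74 were lower (median -0.35), and 47 to 66 with 1 library left out (medians -0.62 to -0.16). Without the 3 libraries that lay apart, which leaves ΔlaeA replicate 1 alone, 21 were lower (median 0.17). cbf5, the pseudouridine synthase of rRNA, stood at 867, 1640 and 1670 FPKM in control replicates 1 to 3, 1605, 1213 and 1304 FPKM in ΔhepA and 1152, 916 and 1115 FPKM in ΔlaeA. Of 24 mitochondrial ribosomal proteins, 20 were higher in ΔhepA (median 0.08), and 12, 10 and 11 without control replicate 1, ΔhepA replicate 1 and ΔhepA replicate 3. In ΔlaeA 18 of the 24 were lower (median -0.18), 12 when ΔlaeA replicate 2 was left out and 1 without the 3 libraries that lay apart. PNO1, BCP1 and RRB1, matched to a list of ribosomal protein chaperones and assembly factors, were all higher in ΔhepA (median 0.24). Without ΔhepA replicate 1 all 3 were lower (median -0.07). They were all lower in ΔlaeA (median -0.04), but only 1 without control replicate 2 (median 0.08). All were higher without the 3 libraries that lay apart (median 0.29). Of the 3 RNA polymerase I genes, 1 was lower in ΔhepA and 3 without control replicate 1 or ΔhepA replicate 1. In ΔlaeA 3 were lower, also with any 1 library left out, and 0 without the 3 libraries that lay apart. No symbol matched the list of ribosomal proteins fused to ubiquitin.

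By symbol alone, 6 genes matched regulators that act on ribosomal protein genes or the TOR and amino acid pathways in yeasts. All 6 were lower in both deletion strains (median -0.47 in ΔhepA and -0.93 in ΔlaeA) and 0 were called. Without the 3 libraries that lay apart 4 of the 6 were lower in each (medians -0.20 and -0.31). cpcA, the Aspergillus counterpart of the amino acid starvation regulator GCN4, stood at 650, 927 and 707 FPKM in the controls, 628, 328 and 571 FPKM in ΔhepA and 429, 106 and 90 FPKM in ΔlaeA. All deletion libraries lay below the controls, with the lowest levels in the libraries that lay apart (log2 differences -0.62 and -2.22, limma adjusted p = 0.714 and 0.0648). CRF1 stood at 445 ± 75.3, 327 ± 13.2 and 266 ± 99.3 FPKM (-0.43 and -0.80). In yeast this symbol belongs to a corepressor of ribosomal protein genes under TOR. Whether the gene matched here encodes that corepressor was not settled. CBF1, a helix-loop-helix factor that in Candida albicans binds ribosomal protein promoters, stood at 173 ± 31.7, 90.7 ± 23.9 and 87.5 ± 40.6 FPKM (-0.94 and -1.06, adjusted p = 0.365 and 0.137). Of the 10 conidial genes 0 were called in ΔhepA and 1 in ΔlaeA, CON10, which rose from 41.7 ± 10.1 to 136 ± 31.5 FPKM (log2 difference 1.68, limma adjusted p = 0.0385). On the lower side, the conidiophore regulator abaA had a mean of 23.7 FPKM in the control and 5.54 FPKM in ΔlaeA (-1.84, adjusted p = 0.0587), and vosA, a spore regulator, had a difference of -1.72 (0.239). These 3 and fluG were named with their values known. Without the 3 libraries that lay apart, 3 of the 10 conidial genes were lower in ΔlaeA (median 0.26).

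The 56 genes are spread over all 8 chromosomes, with 12 on chromosome 1, 10 each on chromosomes 2 and 3, 7 on 5, 6 on 7, 5 on 8, 4 on 6 and 2 on 4. No 2 of them are upstream neighbours, and none overlaps the span of another gene of the table. An upstream neighbour on the other strand lies within 1000 bp of 22 of the 56 starts (39.3%), against 26.7% of all genes; this was not tested. The closest such pair is RPS9 (chromosome 1, 3334492 to 3335436) with AKAW2_11166S, 271 bp apart; AKAW2_11166S stood at 4491 FPKM in the control, 3391 in ΔhepA and 3992 in ΔlaeA. RPS16 (chromosome 2, 3431873 to 3432910) lies 359 bp from the mitochondrial ribosomal protein gene MRPL23, whose ΔhepA difference was 0.20 next to -0.76 for RPS16. RPL15 lies on chromosome 2 (1596578 to 1597549), RPL39 on chromosome 7 (2444401 to 2445175) and RPS28A on chromosome 2 (278140 to 278892), in the coordinates of the deposited table, which equal those of the RefSeq assembly for all 56 genes.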

How the data were processed

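The authors deposited 1 table of FPKM values with 1 column per library. Per the labels' protocols, poly(A) RNA was enriched and made into stranded libraries. Per the submitters' processing notes, which give no roles, the tools included RSEM 1.3.1, STAR 2.7.9a and featureCounts 2.0.1. Trimmomatic 0.39, cutadapt 3.7, FastQC 0.11.9 and Trim Galore 0.6.7 are named there too. The genome build and strand setting are not given in the sources used here. The length column equals the genomic span for 12936 of 12941 genes, so spliced lengths were not available here. Which length the deposited FPKM values were scaled by was not checked. All 12941 identifiers matched RefSeq assembly AkawachiiIFO4308_assembly01, which gave the symbols. No sequences were used, so promoters and proteins were not analysed here.

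FPKM values are not counts, so log2(FPKM + 1) of 10009 genes was fitted with limma 3.58.1 in R 4.3.3 over all 9 libraries (6 residual degrees of freedom, eBayes with a mean trend). Tests are two-sided, and adjustment (Benjamini-Hochberg) runs over all tested genes. That scale understates differences of low genes. Read totals were not used, and relative depth was read from the steps between low values (603 to 896 genes shared with control replicate 3). At most 1.65% of genes above 0 had equal values in 2 libraries. The fit was tested on simulated data. The genes, lists and the rule for named genes were chosen with earlier results of these data known. The rule took both stalk genes, the 8 lowest and 4 highest differences in each deletion strain and the 4 highest and 4 lowest control levels; further members were named for their role, with values known. The values of 1 member are not reported here; it stays in the counts and sums and is left out of the plots by gene. Other steps ran in Python 3.11.15 with pandas 2.3.3.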

Additional observations from a re-analysis of the deposited data

How the results depend on the processing

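Each comparison was refitted with pseudocounts of 0.1 and 5, no filter or a mean of at least 5 FPKM, 3 other scalings, the 2 groups alone, no mean trend, the replicate block, each library left out and the 3 libraries that lay apart left out. In ΔhepA 0 of the 56 genes were called in every fit and 54 to 56 were lower; the median difference was -0.29 with median-ratio scaling, and -0.55 to -0.37 with 1 library left out. In ΔlaeA, with 1 library left out, 40 to 52 were lower at medians of -0.48 to -0.22, the 40 and the -0.22 without ΔlaeA replicate 2. There 1 gene, RPL15, was called with quantile normalization, in a fit that called 1.6% of all tested genes. With TPM scaling 1 was called, again RPL15, against 2.11% of all tested genes. With 1 library left out the count ran from 0 to 13. The 13 came without ΔlaeA replicate 1, which keeps only the ΔlaeA libraries that lay apart. That fit called 16% of all tested genes. Between the deletion strains 0 to 2 genes were called with 1 library left out. The 2 were RPS29 and RPL39 without ΔlaeA replicate 1, in a fit that called 2.57% of all tested genes. The number lower, 20, was 34 with TPM scaling, 6 without the 3 libraries that lay apart and 8 to 28 with 1 library left out. The ratios of the family's share to the control were 0.718 and 0.679. Summed FPKM, a different measure, had means of 112068 in the control, 77689 in ΔhepA and 82391 in ΔlaeA. After median-ratio scaling these means were 103077, 80075 and 87040. Their ratios to the control were then 0.777 and 0.844, and ΔlaeA and the controls overlapped. Replicate numbers share no stated batch, and deviations of same-numbered libraries correlated from -0.22 to 0.42; with the replicate block 0 of the 56 genes were called in each comparison, and 6, 174 and 1 of all genes, against 32, 109 and 5. Counts over all genes moved more: in ΔhepA 11 with the pseudocount of 0.1, 14 with no filter and with the 2 groups alone, 6 with median-ratio scaling, 13 with quantile normalization, 5 to 55 with 1 library left out and 7 without the 3 libraries; in ΔlaeA 29 with no filter, 211 with TPM scaling, 49 with the 2 groups alone, 21 to 1601 with 1 library left out and 9 without the 3 libraries. The causes were not tested. Read totals were not used, so no counting intervals could be given. The shares without RPL39 and the list counts with libraries left out were chosen after seeing the data.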
